A study of Homo sapiens with 60 samples.

Results

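The low dose of the water extract of Aucklandiae Radix was compared with its vehicle in the A549 line, long established from a human lung adenocarcinoma, after 24 h. By their labels, 3 of the 60 libraries came from cells given 20 µg/mL of the extract (Aucklandiae 20) and 3 from cells given dimethyl sulfoxide (Vehicle). All 6 libraries entered the comparison, with every gene of the table that passed a filter on low counts. The series holds 20 groups of 3 libraries: 6 herbal extracts at 20, 100 and 500 µg/mL each, wortmannin, and Vehicle. Per the labels the vehicle was 0.1% dimethyl sulfoxide, while the series design text gives 2%, and no label states a solvent level for the extract groups. The design text also mentions lower doses for toxic extracts, whereas the label of this group gives 20 µg/mL, which was used. Whether the 3 libraries of a group are separate cultures is not stated. Each p-value of the main tests therefore reflects no more than the variation among libraries within groups, estimated from all 60 libraries. This variation may be technical.

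Aucklandiae Radix is the dried root of costus, used in East Asian medicine for digestive complaints. It is known for sesquiterpene lactones such as costunolide and dehydrocostus lactone, reactive compounds that bind protein thiols; how much of them a hot-water extract carries is not given in the sources used here. Cells typically answer thiol-reactive compounds through NRF2, a transcription factor that turns on antioxidant genes, and through the heat shock and ATF4 stress programmes. A549 cells carry a mutated KEAP1, the protein that normally holds NRF2 down, so that NRF2 targets are already high in these cells without treatment.

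Libraries of Aucklandiae 20 held 20.64 to 29.47 M expected counts (estimated fragment counts per gene) and those of Vehicle 24.87 to 28.4 M, within the 17.72 to 30.64 M of all 60. The first part of the library name is 4 for Aucklandiae and Polygalae and A1 for Vehicle, so a difference between these library sets and a difference between treatments cannot be told apart in any comparison with Vehicle. Of the 19 lung epithelial markers, KRT8, KRT18, KRT7 and ALDH1A1 were abundant in both groups, whereas the alveolar genes NKX2-1, SFTPA1, SFTPB and SFTPC were at or near 0. Their summed level was 15400 to 16200 CPM in Aucklandiae 20 and 15100 to 15400 CPM in Vehicle. For the marker and histone sums of this paragraph, CPM are counts scaled by library totals alone. Elsewhere CPM are counts scaled to a common depth and for library composition. Of 17 markers of fibroblasts, endothelium and blood, 15 lay under 1 CPM in every library of each group, and the list summed to 17.8 to 18.3 CPM in Aucklandiae 20 and 18 to 18.8 CPM in Vehicle. The replication-dependent histone messages, which lack a poly(A) tail, summed to 158 to 164 CPM in Aucklandiae 20 and 163 to 174 CPM in Vehicle.

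Small changes in many genes separated the groups. The growth-related transcription factor gene FOSL1, the antiproliferative gene BTG2 and the cytoskeletal genes ACTB and TUBA1C fell in Aucklandiae 20, while the kinase gene copy SIK1B, the amino acid transporter gene SLC38A2 and the receptor gene PTK7 rose. Of 17368 genes tested, 520 (2.99%) passed edgeR's quasi-likelihood test at a Benjamini-Hochberg adjusted p under 0.05: 240 rose (1.38%) and 280 fell (1.61%). The median log2 fold change was 0.197 among the genes that rose and -0.192 among those that fell, against 0.003 over all genes. A change of 2-fold or more was seen in 17 of the 520 genes, of which 4 rose and 13 fell. All 3 Aucklandiae 20 libraries lay beyond all 3 Vehicle libraries for 513 of the 520, a separation that 12.5% (higher) and 12% (lower) of all tested genes showed. Polygalae 20 and Aucklandiae 500 share the library set of Aucklandiae 20. Of the 520, 52 (10%) also differed from Polygalae 20 in the same direction and 1 in the opposite, beside 3.89% of all genes. From Aucklandiae 500, 19 (3.65%) differed in the same direction and 5 in the opposite, beside 1.05% of all genes. These tests share the Aucklandiae 20 libraries with the main test. Protein-coding genes made up 233 of the rises and 252 of the falls (13716 tested). Pseudogenes made up 4 and 10 (987 tested), and long noncoding genes 2 and 13 (2266 tested).

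The number of genes depended on single libraries and on the scaling. Without Vehicle replicate 2 the count was 104, without Aucklandiae 20 replicate 2 it was 174, without Aucklandiae 20 replicate 3 219, and without Vehicle replicate 1 240. With depth scaled by library totals alone, 556 genes were higher and 157 lower, a share of 78% higher in place of 46.2%. Of 73 called genes that the naming rule took, 59 lost their call in at least 1 fit that left out a library. All 520 genes kept the sign of their change in each of the 16 alternatives that gave them a value. This says little, because the alternatives reuse the same libraries and 513 of these genes had groups that did not overlap. Calls were spread unevenly over genes of different length and base composition. In the fifth of genes with the shortest longest transcript (3451 genes), 18 rose and 60 fell. In the fifth with the longest (3447 genes), 65 rose and 27 fell. In the fifth of highest GC content (3448 genes) 99 rose and 50 fell. The part of transcript length or GC content in single results was not tested.

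**Figure D1:**
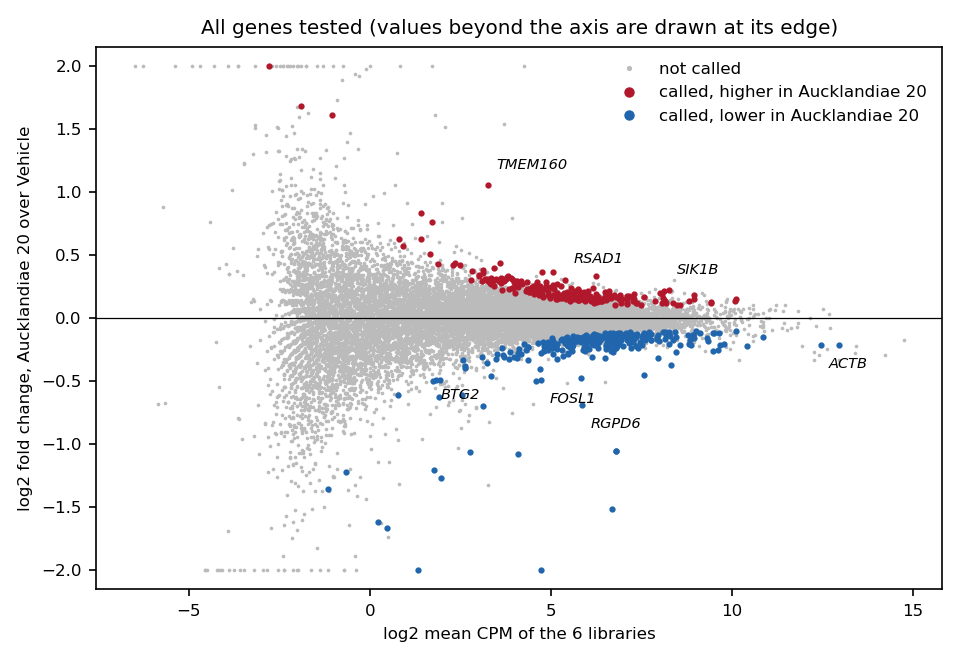
Log2 fold change of Aucklandiae 20 over Vehicle (y axis) against the log2 mean CPM of the 6 libraries (x axis), 1 point per tested gene, with the 240 genes that rose in red and the 280 that fell in blue. Most coloured points lie close to 0, and TMEM160, with a log2 fold change of 1.05, stands clear of the other genes that rose at its level.

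Among protein-coding genes with at least 5 CPM, the 12 largest rises and 12 largest falls were named. The largest rise was that of TMEM160 (ENSG00000130748, chromosome 19, 47045907 to 47048630), which encodes a small protein of the mitochondrial membrane. It had 11.5, 12.6 and 14.8 CPM in the Aucklandiae 20 libraries, against 4.45, 6.32 and 7.70 CPM in the Vehicle libraries. The groups did not overlap, but the Vehicle libraries were themselves widely spread. The log2 fold change was 1.05 ± 0.247 (SE, n = 3 each; edgeR adjusted p = 0.0137), and the call was lost without Vehicle replicate 1 or 2 or Aucklandiae 20 replicate 3. The means were 12.9 CPM in Aucklandiae 100 and 12.3 CPM in Aucklandiae 500, and 8.46 to 13.5 CPM in the other 5 extracts at 20 µg/mL, so that Vehicle (6.16 CPM) had the lowest mean of these groups.

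The other 11 rises lay between 0.33 and 0.44 on the log2 scale. LMBR1L, a membrane receptor for lipocalin, had 13.2, 11.6 and 12.3 CPM in Aucklandiae 20 and 9.18, 8.82 and 10.2 CPM in Vehicle. PTK7, a catalytically inactive receptor tyrosine kinase of planar cell polarity, had 10.5, 9.30 and 9.76 CPM in Aucklandiae 20 and 7.32, 7.57 and 7.92 CPM in Vehicle. Every Aucklandiae 20 library was above every Vehicle library for both genes, with log2 fold changes of 0.40 ± 0.076 (adjusted p = 0.00152) and 0.38 ± 0.0763 (adjusted p = 0.00259). The transcription factor gene KLF2, known for its response to fluid shear in endothelium, had 7.68, 7.41 and 8.75 CPM in Aucklandiae 20 and 5.46, 6.32 and 6.53 CPM in Vehicle (0.37 ± 0.101, adjusted p = 0.0281). PKD1, which encodes polycystin 1, averaged 84.3 ± 7.48 CPM in Aucklandiae 20 and 67.0 ± 2.54 CPM in Vehicle (SD, n = 3 each; adjusted p = 0.0226), a gene with close pseudogene copies. PDF, a mitochondrial peptide deformylase, rose by 0.44 and the anoctamin family gene ANO8 by 0.42. The remaining rises in the set were those of DGKQ (a diacylglycerol kinase), C11orf86, NUDT18 (a hydrolase of oxidised nucleotides), LYST (a regulator of lysosomal trafficking) and TMED1 (a cargo receptor of the early secretory pathway), at 0.33 to 0.35.

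RGPD6 and NPIPB5, which had the largest and the third largest of the 12 falls, have close copies, and the authors' counting step divides reads between such loci. RGPD6, a member of the RANBP2-like family, had 38.8, 58.2 and 37.2 CPM in Aucklandiae 20 and 77.4, 70.2 and 68.6 CPM in Vehicle, a log2 fold change of -0.69 ± 0.201 with an adjusted p of 0.0475 that was lost under 8 of the 16 alternatives, the leaving out of 1 library included. NPIPB5, of the nuclear pore interacting protein family, had 53.3, 46.1 and 44.0 CPM in Aucklandiae 20 and 63.5, 68.0 and 69.2 CPM in Vehicle (-0.48 ± 0.0678, adjusted p = 4.46e-05). For both genes all Aucklandiae 20 libraries were lower than all Vehicle libraries, and which copy the reads came from is uncertain.

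FOSL1 (ENSG00000175592, chromosome 11, 65892049 to 65900573), which encodes the AP-1 subunit FRA1 and is kept up by the ERK pathway, had 22.5, 21.3 and 22.0 CPM in Aucklandiae 20. In Vehicle it had 31.8, 27.7 and 33.2 CPM. The Aucklandiae 20 libraries lay within a narrow band under every Vehicle library, and the means were 21.9 ± 0.573 CPM in Aucklandiae 20 and 30.9 ± 2.88 CPM in Vehicle (SD, n = 3 each; log2 fold change -0.49 ± 0.078, adjusted p = 0.000139). BTG2 (ENSG00000159388, chromosome 1, 203305491 to 203309602), a p53-induced gene that restrains the cell cycle, had 9.05, 8.49 and 8.03 CPM in Aucklandiae 20 and 11.5, 12.1 and 11.6 CPM in Vehicle. Here too no libraries overlapped (-0.46 ± 0.0789, adjusted p = 0.000383). Within the library set, FOSL1 was not called against Polygalae 20 (-0.07, edgeR adjusted p = 0.691) or Aucklandiae 500 (-0.19, adjusted p = 0.455). BTG2 was not called against Polygalae 20 (-0.22, edgeR adjusted p = 0.104) or Aucklandiae 500 (-0.24, adjusted p = 0.208). Of the 24 named genes, FOSL1, BTG2, NPIPB5, LMBR1L and PTK7 were called under all 16 alternatives, RPS26 lost its call under 1 blocked fit of the 6 libraries, and the other 18 lost it in at least 1 of the fits that left out a library.

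Regulators of transcription stood among the falls: HOXC8 (-0.36), a homeobox gene of trunk patterning, ZBED3 (-0.32), an axin-binding regulator of WNT signalling, TCF7L1 (-0.32), a repressor at WNT targets, and TLE3 (-0.31), a Groucho-type corepressor that TCF proteins recruit. TLE3 averaged 14.2 ± 1.12 CPM in Aucklandiae 20 and 17.5 ± 0.717 CPM in Vehicle (SD, n = 3 each; adjusted p = 0.00839). The ribosomal protein gene RPS26 averaged 276 ± 22.5 CPM in Aucklandiae 20 and 357 ± 17.0 CPM in Vehicle (-0.37 ± 0.0708, adjusted p = 0.00212), and its pseudogene RPS26P19 also passed (-1.21, adjusted p = 0.000916), and reads of the pair cannot be assigned with certainty. The calcium-binding protein gene S100A11 had 230, 209 and 231 CPM in Aucklandiae 20 and 276, 280 and 279 CPM in Vehicle (-0.32, adjusted p = 0.0253). IFITM2, an interferon-inducible membrane protein, and RNASEK, a subunit associated with the vacuolar proton pump, completed the falls at -0.32 and -0.31.

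**Figure D2:**
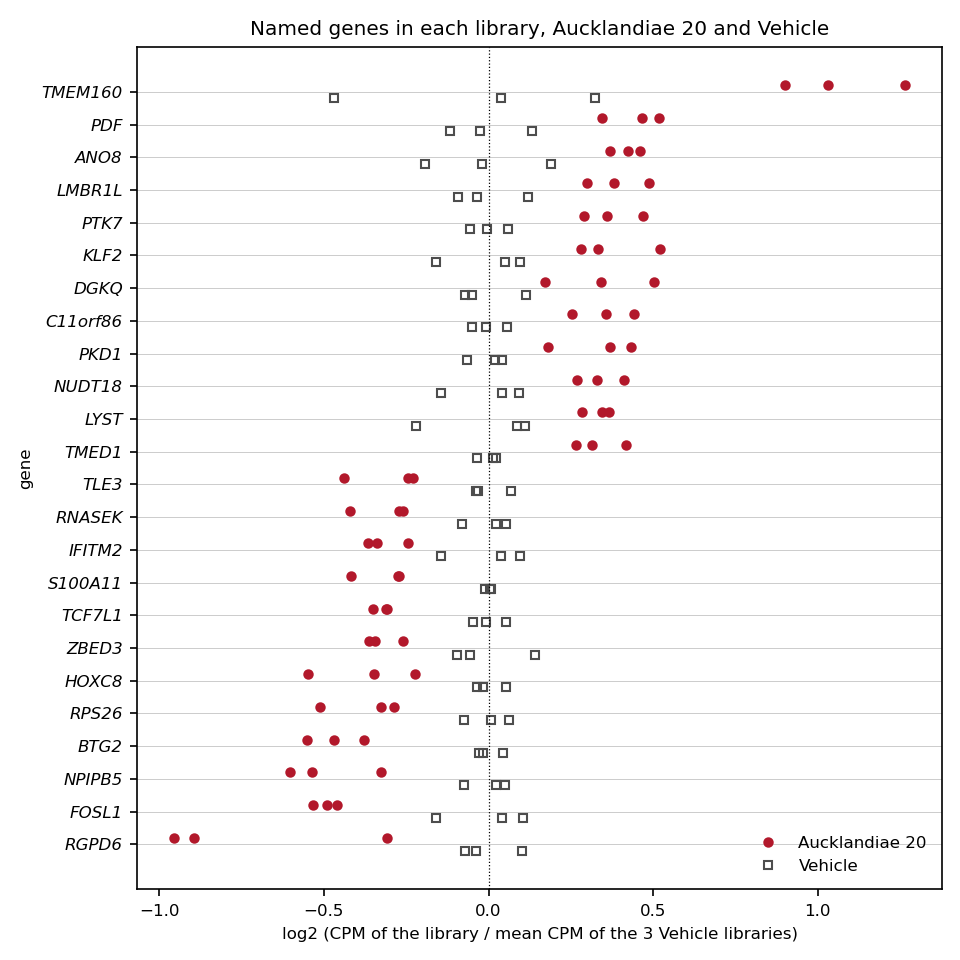
CPM of each library relative to the mean of the 3 Vehicle libraries, on a log2 scale (x axis), for the 24 named genes (y axis), with Aucklandiae 20 libraries as red points and Vehicle libraries as open squares. The points of both groups do not overlap for any gene, which the naming rule required, and the spread between libraries is widest for TMEM160 and RGPD6.

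By the same size limits, 2 genes of other types were higher and 16 lower. The largest of these falls was that of TUBA1B-AS1, which lies antisense to a tubulin gene, with 0.267, 0.359 and 1.49 CPM in Aucklandiae 20 and 73.8, 19.5 and 63.2 CPM in Vehicle (-6.32 ± 1.67, adjusted p = 0.0279). The Vehicle libraries differed widely among themselves, the strand setting of the counting step is not given in the sources used here, and TUBA1B itself was not called (-0.10, adjusted p = 0.102). The noncoding copies FP671120.3 and FP236383.2 had 30.1 to 84.7 CPM in Aucklandiae 20 and 140 to 160 CPM in Vehicle and held equal values in most libraries. The long noncoding RNA LINC00707 had 33.7, 30.4 and 32.4 CPM in Aucklandiae 20 and 41.4, 38.7 and 41.0 CPM in Vehicle (-0.32, adjusted p = 0.000656).

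Ranked by p instead of size, more abundant genes came first, and those given here were chosen after their values were seen. SIK1B, a near-identical copy of the salt-inducible kinase gene SIK1, had 328, 327 and 337 CPM in Aucklandiae 20 and 281, 284 and 288 CPM in Vehicle (0.22 ± 0.0253, adjusted p = 1.07e-07, the smallest of all). SIK1 itself averaged 2.60 CPM in Aucklandiae 20 and 1.89 CPM in Vehicle and was not called (adjusted p = 0.396), and reads cannot be assigned to either copy with certainty. SLC38A2, a transporter of small neutral amino acids, had 297, 299 and 297 CPM in Aucklandiae 20 and 265, 242 and 261 CPM in Vehicle (0.22, adjusted p = 0.000122). RSAD1, a radical SAM family gene, had 44.3, 48.4 and 46.7 CPM in Aucklandiae 20 and 38.2, 38.4 and 35.9 CPM in Vehicle (0.31, adjusted p = 6.68e-05). These libraries separated fully in each gene, although the differences were far under 2-fold. Further rises were those of PHLDB2, a microtubule-anchoring protein of the cell cortex (0.21, adjusted p = 0.000376), KIFC3, a minus-end-directed kinesin (0.19, adjusted p = 0.000696), and KLF10, a TGF-beta-induced transcription factor (0.19, adjusted p = 0.00122).

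Falls of small p included several genes of actin and tubulin. Beta-actin, ACTB, had 5191, 5115 and 5250 CPM in Aucklandiae 20 and 5930, 6254 and 5858 CPM in Vehicle (-0.21 ± 0.0364, adjusted p = 0.000376). The alpha-tubulin gene TUBA1C had 736, 676 and 748 CPM in Aucklandiae 20 and 836, 896 and 843 CPM in Vehicle (-0.25 ± 0.0395, adjusted p = 0.000113). COTL1, which binds actin filaments, had 435, 432 and 428 CPM in Aucklandiae 20 and 496, 505 and 500 CPM in Vehicle (-0.21, adjusted p = 0.000383). In these 3 genes the Aucklandiae 20 libraries were the lower ones without overlap. None of the 3 was called against Polygalae 20 or Aucklandiae 500 (smallest edgeR adjusted p = 0.168). Actin and tubulin genes have paralogs and processed pseudogenes, as have those of ferritin and ribosomal proteins, so the division of reads among them is uncertain. The focal adhesion gene ZYX (-0.24), the tropomyosin genes TPM3 (-0.14) and TPM4 (-0.12), the actin-capping gene CAPZB (-0.18), and the tubulin genes TUBG1 (-0.19) and TUBB4B (-0.12) also fell. ACTG1 (-0.06, adjusted p = 0.188), TUBA1B (-0.10, adjusted p = 0.102), TMSB10 (-0.23, adjusted p = 0.0644) and TAGLN (-0.26, adjusted p = 0.0522) were not called. These genes were grouped after their values were seen, and no list of cytoskeletal genes was tested.

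Falls of other abundant genes with small p were also picked after their values were seen. PABPC1, the cytoplasmic poly(A)-binding protein, averaged 1256 ± 23.2 CPM in Aucklandiae 20 and 1464 ± 26.9 CPM in Vehicle (SD, n = 3 each; -0.22, adjusted p = 0.000122). B2M, the light chain of MHC class I, had 93.4, 91.6 and 94.1 CPM in Aucklandiae 20 and 112, 113 and 109 CPM in Vehicle (-0.26 ± 0.0441, adjusted p = 0.000376). Both genes were lower in all 3 Aucklandiae 20 libraries than in any Vehicle library. CSNK2B, the regulatory subunit of casein kinase 2 (-0.23), ATXN2, an RNA-binding protein of stress granules (-0.24), and the ubiquitin and NEDD8 conjugating enzyme genes UBE2L3 (-0.21) and UBE2M (-0.22) fell as well.

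In pathway lists few members were called, and 2.99% of all genes were. List counts are those of the edgeR fit to all 60 libraries with TMM scaling, and 16 of the 25 lists with a call had none in at least 1 of the 6 fits that each left out a library of either group. Of 25 NRF2 targets, 2 rose and 2 fell, with a median of 0.017 beside 0.003 over all genes. The cystine transporter gene SLC7A11 had 537, 539 and 514 CPM in Aucklandiae 20 and 490, 425 and 488 CPM in Vehicle (0.18, adjusted p = 0.0119). GCLM, a subunit of the first enzyme of glutathione synthesis, averaged 247 ± 6.20 CPM in Aucklandiae 20 and 225 ± 11.5 CPM in Vehicle (0.14, adjusted p = 0.0396). The ferritin light chain FTL (-0.21, adjusted p = 0.03) and OSGIN1, an oxidative stress-induced gene (-0.19, adjusted p = 0.0167), fell. HMOX1, the haem oxygenase gene often used as a marker of this response, had 142, 137 and 135 CPM in Aucklandiae 20 and 142, 146 and 146 CPM in Vehicle and was not called (-0.07 ± 0.0439, adjusted p = 0.474). NFE2L2, which encodes NRF2 and stood in the AHR list, fell to 116 ± 1.33 CPM in Aucklandiae 20, against 126 ± 2.32 CPM in Vehicle (-0.12, adjusted p = 0.0345), the only called gene of the 9 in that list. Among 18 selenoprotein genes tested of 19, SEPHS2, which supplies activated selenium, rose (0.20, adjusted p = 0.0136) and GPX4, the lipid peroxide reductase, fell (-0.20, adjusted p = 0.0334).

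Of 19 heat shock genes, HSPB1, the small heat shock protein HSP27, was the single call and it fell. It had 337, 307 and 313 CPM in Aucklandiae 20 and 365, 410 and 380 CPM in Vehicle, with no overlap (-0.27 ± 0.07, adjusted p = 0.0227), and the call was lost without Vehicle replicate 2 or Aucklandiae 20 replicate 2 or 3. The other 18 were not called, and the list's median was 0.002. Of 18 endoplasmic reticulum chaperone genes, 3 rose and none fell (median 0.05; none called without Aucklandiae 20 replicate 2 or Vehicle replicate 2): SDF2L1, part of a chaperone complex (0.31, adjusted p = 0.0215), EDEM1, which marks misfolded glycoproteins for degradation (0.17, adjusted p = 0.00776), and DNAJC3, an inhibitor of the kinase PERK (0.16, adjusted p = 0.0154). Of 24 ATF4 targets, 2 rose and none fell (6 rose with library totals as the scale, and 1 fell in 4 other fits), namely TRIB3, a pseudokinase induced by amino acid stress (69.5 ± 2.26 CPM in Aucklandiae 20 and 59.7 ± 1.15 CPM in Vehicle; 0.22, adjusted p = 0.00505), and SLC7A11.

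Promoter sequences are shown for 3 genes that differed from Vehicle, chosen after their values were seen because each holds a well-known short motif (250 bases before the transcription start, from RefSeq on GRCh38.p14, read along the gene's own strand). Capitals mark CCAAT, the box bound by NF-Y, in BTG2 and TMEM160, and GAAGGTTC, a match to the inverted heat shock element core GAANNTTC, in HSPB1. BTG2 is given from chr1:203305269-203305518 (plus strand), TMEM160 from chr19:47048625-47048874 (minus strand) and HSPB1 from chr7:76302423-76302672 (plus strand).
BTG2: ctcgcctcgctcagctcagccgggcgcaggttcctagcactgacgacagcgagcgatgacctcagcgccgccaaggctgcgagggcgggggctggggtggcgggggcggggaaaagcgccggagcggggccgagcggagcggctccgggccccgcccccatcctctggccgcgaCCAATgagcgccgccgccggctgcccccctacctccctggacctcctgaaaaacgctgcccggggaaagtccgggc
TMEM160: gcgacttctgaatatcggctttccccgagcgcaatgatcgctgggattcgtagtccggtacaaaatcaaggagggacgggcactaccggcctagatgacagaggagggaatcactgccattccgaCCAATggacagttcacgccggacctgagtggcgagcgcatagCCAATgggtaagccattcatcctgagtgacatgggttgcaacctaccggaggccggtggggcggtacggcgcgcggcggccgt
HSPB1: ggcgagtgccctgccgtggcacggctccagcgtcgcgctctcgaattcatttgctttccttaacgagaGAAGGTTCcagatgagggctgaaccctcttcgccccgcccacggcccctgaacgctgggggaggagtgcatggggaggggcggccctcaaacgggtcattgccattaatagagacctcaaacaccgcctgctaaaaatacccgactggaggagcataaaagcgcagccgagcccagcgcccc
The box in BTG2 lies 76 to 72 bases before the start, those in TMEM160 125 to 121 and 83 to 79 bases before it, and the heat shock core in HSPB1 182 to 175 bases before it. On either strand, CCAAT occurred in 32% (11240) and GAANNTTC in 5.78% (2030) of the 35116 promoters of that length, and a match describes these letters only. The 3 genes did not share a direction: TMEM160 was higher in Aucklandiae 20 than in Vehicle, and BTG2 and HSPB1 were lower.

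Few genes of lipid and sugar metabolism were called. Of 13 fatty acid synthesis genes tested of 14, 3 rose and none fell, with a median of 0.093, and none was called without Vehicle replicate 1 or without Aucklandiae 20 replicate 2. ACACA, the acetyl-CoA carboxylase that commits carbon to fatty acids, had 268, 281 and 274 CPM in Aucklandiae 20 and 233, 245 and 238 CPM in Vehicle (0.20 ± 0.0489, adjusted p = 0.0141). The desaturase genes SCD (0.13, adjusted p = 0.0454) and FADS1 (0.10, adjusted p = 0.0436) passed narrowly. None of 25 cholesterol synthesis genes was called by edgeR in the fit to all libraries with TMM scaling or by DESeq2 (median 0.035; 9 at an unadjusted p under 0.05 in edgeR), whereas with library totals 3 were called higher (median 0.072), and 1 was in 5 other edgeR fits. Of 19 glycolysis genes PFKL, the liver phosphofructokinase (0.17, adjusted p = 0.00861), and PFKFB3, which makes its activator (0.14, adjusted p = 0.00546), rose, and DESeq2 called 2 glycolysis genes higher and 1 lower. ANGPTL4, a secreted inhibitor of lipoprotein lipase and the single call of 16 PPAR and fatty acid oxidation genes, averaged 24.9 ± 1.18 CPM in Aucklandiae 20 and 21.1 ± 0.670 CPM in Vehicle (SD, n = 3 each; 0.24 ± 0.0635, adjusted p = 0.0227). Its libraries did not overlap, and the call was lost without Vehicle replicate 2 or 3 or Aucklandiae 20 replicate 3.

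In the list of MAPK early and feedback genes, 2 of 20 rose and 2 fell. The immediate early gene IER2 had 62.3, 61.9 and 64.8 CPM in Aucklandiae 20 and 52.8, 56.6 and 55.3 CPM in Vehicle (0.20 ± 0.0408, adjusted p = 0.00321). DUSP1, the MAPK phosphatase, rose (0.16, adjusted p = 0.0227), and SPRED2, an inhibitor of RAS signalling, fell with FOSL1 (-0.18, adjusted p = 0.0389). IER2 and DUSP1 therefore moved in the opposite direction to FOSL1. BTG2 was the single call among 21 p53 targets, whose median was 0.071. With library totals as the scale, 4 p53 targets were called higher and 1 lower (median 0.107), and up to 3 were higher in the other fits. PLK1, the mitotic kinase, was the single call of 21 mitosis genes (183 ± 7.71 CPM in Aucklandiae 20 and 206 ± 4.03 CPM in Vehicle; -0.17, adjusted p = 0.00306), and none of 23 DNA replication genes was called by edgeR or DESeq2 (1 at an unadjusted p under 0.05 in edgeR).

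The calls among genes of translation and splicing were all falls in the fit to all libraries with TMM scaling, and some other fits called ribosomal protein genes in both directions. Of 39 cytosolic ribosomal protein genes 4 fell, among them RPL11, RPS15 and RPL12 (-0.22 to -0.18), and the list's median was -0.054 (with library totals, 1 was higher and 4 lower, with a median of -0.018). The cytosolic list had 4 higher and 10 lower with every gene that had a count, 6 higher and 11 lower in the 6 libraries alone, and 1 higher and 8 lower without Polygalae 20. The summed share was taken over all cytosolic ribosomal protein genes matched by symbol, a wider set than the 39 of the list. It was 4.59, 4.49 and 4.64% of the counts in Aucklandiae 20 and 4.54, 4.63 and 4.55% in Vehicle, which overlap. Of 25 splicing and RNA-binding genes 4 fell: the kinase gene CLK1 (-0.23, adjusted p = 0.00209), the SR protein genes SRSF6 and SRSF5 (-0.15 each) and HNRNPC (-0.12, adjusted p = 0.0447). CLK1 had 31.7, 32.2 and 30.5 CPM in Aucklandiae 20 and 36.9, 37.9 and 35.9 CPM in Vehicle. Of 30 mitochondrial ribosomal protein genes MRPL9 (-0.17) and MRPL3 (-0.12) fell, while 2 were higher and none lower with library totals, 2 higher and 4 lower in the 6 libraries alone, and 3 higher and 3 lower without Polygalae 20. With library totals as the scale, 10 of the 73 called genes that the naming rule took lost their call: SRSF5, SRSF6, HNRNPC, MRPL9, MRPL3, NFE2L2, SPRED2, RGPD6, the proteasome gene PSMB2 and the matricellular gene CCN1.

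**Figure D3:**
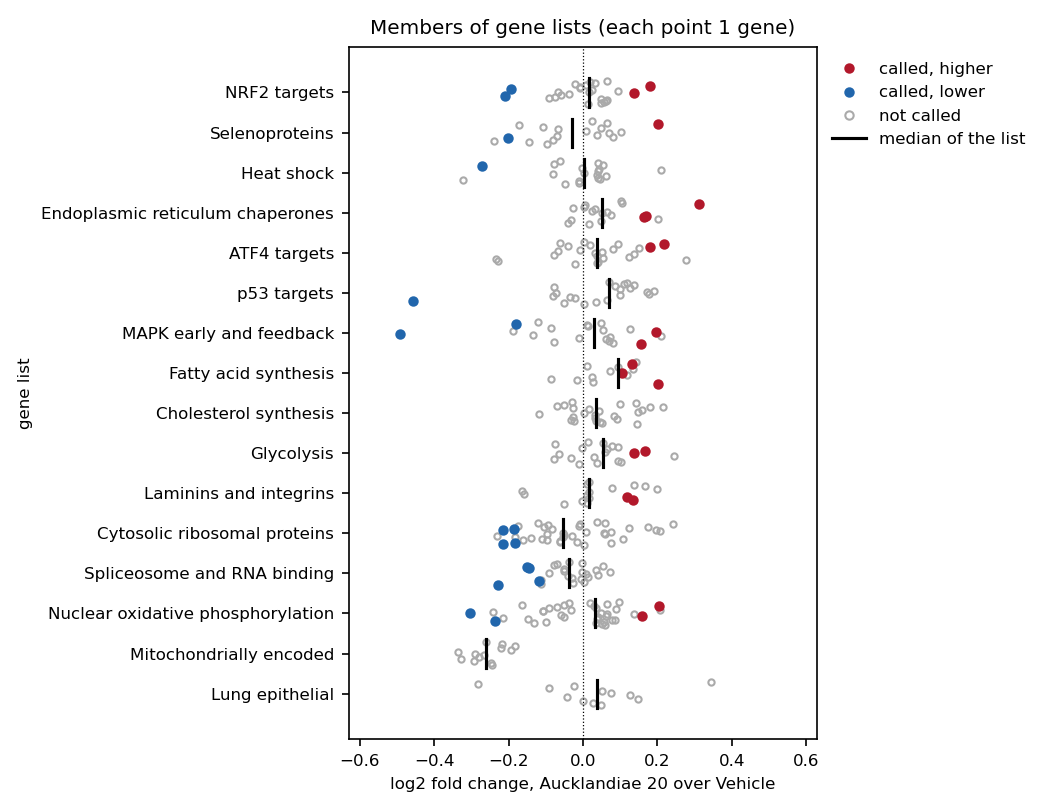
Log2 fold change of Aucklandiae 20 over Vehicle (x axis) for the tested members of 16 gene lists (y axis), with called genes in red (higher) or blue (lower), genes not called as open grey circles, and the median of each list as a black bar. Medians lie between -0.054 and 0.093 except for the mitochondrially encoded genes, whose median is -0.261 with no gene called.

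The 13 protein-coding genes of the mitochondrial genome had lower estimates throughout, from -0.34 to -0.18, yet none passed the test across all genes in the fit of all 60 libraries. MT-CO1, a subunit of cytochrome c oxidase, had 17885, 16056 and 17519 CPM in Aucklandiae 20 and 20727, 20403 and 21938 CPM in Vehicle (-0.29 ± 0.0931, adjusted p = 0.072, the smallest of the 13). In edgeR, 7 of the 13 had an unadjusted p under 0.05, and in 12 of the 13 every Aucklandiae 20 library was under every Vehicle library. DESeq2 called 1 of them lower, the fit of the 6 libraries alone 11, and the fit with every gene that had a count all 13, with list medians of -0.283 to -0.214 over the 16 alternatives. These transcripts come from shared precursors and are not independent of each other. Their summed share of the counts was 7.44, 6.68 and 7.45% in Aucklandiae 20 and 8.38, 8.34 and 8.71% in Vehicle, a difference of -1.29 percentage points (exact permutation test, two-sided, p = 0.1, the smallest that 3 against 3 allows). Mitochondrial ribosomal RNA made up 2.76, 2.78 and 2.75% in Aucklandiae 20 and 3, 3.06 and 3.04% in Vehicle (exact permutation p = 0.1). Aucklandiae 20 had the lowest mean share of mitochondrial messages of the 20 groups (7.19%, libraries from 6.68 to 7.45%), but Longan 20 (7.37%, from 6.81 to 7.79%) and Polygalae 20 (7.47%, from 6.9 to 8.41%) came next and overlapped with it. Aucklandiae 100 had 7.79% and Aucklandiae 500 7.58%, and Vehicle (8.48%) stood 15th from the bottom. Fewer mitochondria per cell, fewer transcripts per mitochondrion and a difference between the library sets cannot be told apart in such libraries. Of 38 nuclear genes of oxidative phosphorylation 2 rose, NDUFV1 of complex I (0.20, adjusted p = 0.00442) and CYC1 of complex III (0.16, adjusted p = 0.0241), and 2 fell, NDUFA3 of complex I (-0.30, adjusted p = 0.0246) and ATP5MF of ATP synthase (-0.24, adjusted p = 0.0102).

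The remaining lists held 0 to 2 calls each. Among 16 laminin and integrin genes the integrin genes ITGAV (0.14) and ITGB5 (0.12) rose. In 29 proteasome genes PSMD2 of the regulatory particle rose (0.16) and PSMB2 of the core fell (-0.16). Single rises were those of the NF-kB target TNFAIP2 (0.12), the arrestin family gene ARRDC3 of the FOXO list (0.16), the proton pump gene ATP6V1H of the lysosome list (0.19) and HILPDA, a lipid droplet protein of the hypoxia list (0.23, adjusted p = 0.0337). Single falls were those of CCN1, a matricellular protein of the mesenchymal list (-0.16, adjusted p = 0.0455), and, in the interferon list, of B2M. The complement, growth factor, BMP, metallothionein, histone and lung epithelial lists, and the markers of other cell types, had no call in this fit (1 of 22, 4 of 19, 4 of 16, 3 of 6, 2 of 10, 1 of 12 and 0 of 5 members at an unadjusted p under 0.05), and in DESeq2 a single histone gene was called lower. With library totals, 2 growth factor genes and 1 BMP gene were called higher, and the other fits called at most 1 gene in each direction in any of these lists.

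Whether the low dose differed from the high dose of the same extract was asked within the same library set and without Vehicle. Aucklandiae 20 and Aucklandiae 500 differed in 182 genes (1.05% of those tested), of which 139 were higher at 20 µg/mL (0.8%) and 43 lower (0.248%). Without Aucklandiae 500 replicate 1 or Aucklandiae 20 replicate 2 the count was 113, and without Aucklandiae 500 replicate 2 it was 105. Several of the genes with the largest differences had means near that of Vehicle at 20 µg/mL. The complement component gene C3, an acute phase protein that lung epithelium also secretes, averaged 37.3 ± 0.120 CPM in Vehicle, 37.3 ± 2.83 at 20, 31.5 ± 0.957 at 100 and 25.1 ± 2.39 at 500 µg/mL (SD, n = 3 each). It was higher at 20 than at 500 µg/mL by 0.57 ± 0.0868 (edgeR adjusted p = 3.86e-05) and did not pass against Vehicle at 20 µg/mL (-0.01, adjusted p = 0.985). BMPER, a secreted modulator of BMP signals, averaged 5.95, 6.36, 5.73 and 4.16 CPM along the same order (20 against 500: 0.61 ± 0.102, adjusted p = 8.37e-05), and the matrix protein gene SMOC1 15.0, 16.0, 15.5 and 10.3 CPM (0.63 ± 0.0846, adjusted p = 1.24e-06). For both genes the mean at 500 µg/mL was the lowest of the 4. The glycoprotein gene CDCP1 and the lymphatic growth gene CCBE1 were higher at 20 than at 500 µg/mL by 0.53 (adjusted p = 0.000684) and 0.47 (adjusted p = 0.00671).

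GPX1, the main cytosolic glutathione peroxidase and a selenoprotein, had 80.6 CPM in Vehicle, 72.9 at 20, 66.5 at 100 and 54.0 at 500 µg/mL. At 20 µg/mL it had 71.6, 71.4 and 75.6 CPM, under all Vehicle libraries (79.9, 81.3 and 80.5 CPM), but did not pass that test (-0.15 ± 0.0708, adjusted p = 0.279), and it was higher than at 500 µg/mL by 0.43 ± 0.0735 (adjusted p = 0.00026). TM4SF4, a tetraspanin-like membrane protein, showed the same order of means, 15.0, 13.7, 13.0 and 9.86 CPM (20 against 500: 0.48, adjusted p = 0.000149). In the other direction, HMOX1 averaged 145 CPM in Vehicle, 138 at 20, 143 at 100 and 188 at 500 µg/mL, and was lower at 20 than at 500 µg/mL (log2 difference -0.44 ± 0.0436, adjusted p = 1.56e-10). TRIML2, a TRIM-like gene, averaged 40.0, 38.9, 42.5 and 52.0 CPM (-0.41 ± 0.0569, adjusted p = 1.99e-06), and the laminin gene LAMA3 54.5, 55.0, 56.6 and 68.3 CPM (-0.31, adjusted p = 0.000572). SFRP4, a secreted WNT antagonist, and KLHL29, a kelch family gene, were lower at 20 µg/mL, with log2 differences of -0.43 (adjusted p = 0.00671) and -0.39 (adjusted p = 0.046). ANGPTL4 differed from these: it averaged 21.1, 24.9, 27.4 and 29.8 CPM, was called against Vehicle at 20 µg/mL, and was also lower at 20 than at 500 µg/mL (-0.26, adjusted p = 0.0125). Earlier results on other doses of this extract had already named C3, BMPER, CCBE1, GPX1, TM4SF4, HMOX1, TRIML2, LAMA3 and ANGPTL4. Their differences between the doses are therefore not independent of that choice.

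**Figure D4:**
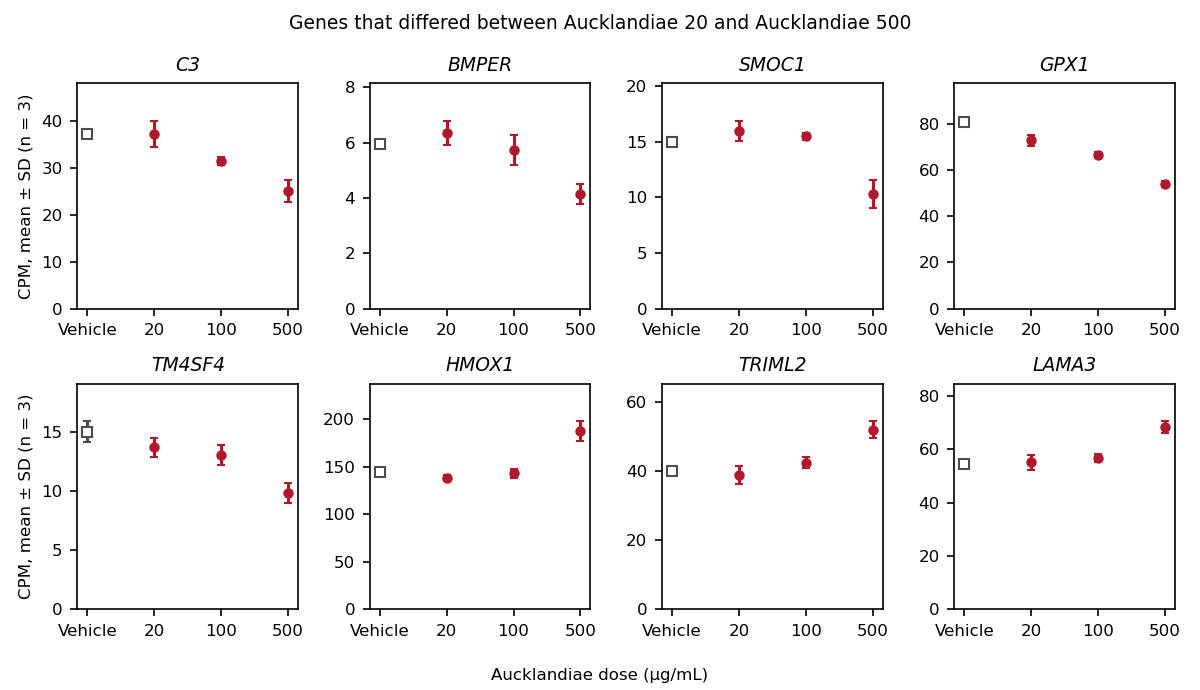
CPM (y axis, mean ± SD of 3 libraries) of 8 genes that differed between Aucklandiae 20 and Aucklandiae 500, in Vehicle (open square) and at 20, 100 and 500 µg/mL of the extract (red points, x axis with even spacing). C3, BMPER, SMOC1, GPX1 and TM4SF4 are lowest and HMOX1, TRIML2 and LAMA3 highest at 500 µg/mL, while at 20 µg/mL all but GPX1 have libraries that overlap those of Vehicle. All but SMOC1 had been named by earlier results on other doses of this extract.

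By list, of 12 lung epithelial genes 4 were higher at 20 than at 500 µg/mL and none lower, of 24 mesenchymal and matrix genes 5 and 0, of 19 growth factor and insulin genes 4 and 0, and of 18 endoplasmic reticulum chaperone genes 4 and 0. Their medians were 0.193, 0.054, 0.056 and 0.067, against -0.002 over all genes. Over all genes, 0.8% were higher and 0.248% lower. These 4 lists were picked after their counts were seen. Other lists had calls in both directions, such as the 16 laminin and integrin genes with 3 higher and 2 lower. The list counts of this comparison were not computed under the alternatives. Of 25 NRF2 targets 3 were lower at 20 µg/mL, HMOX1 among them, and none higher. PHLDB2 was higher at 20 µg/mL than in Aucklandiae 500 (0.38, adjusted p = 1.1e-10) and than in Vehicle, and C11orf86 likewise (0.43, adjusted p = 0.00959). Against Vehicle, which all these comparisons share, 240 genes rose and 280 fell in Aucklandiae 20, 187 and 168 in Aucklandiae 100, and 389 and 468 in Aucklandiae 500, so the count was not lowest at the low dose.

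The other extracts at 20 µg/mL gave a further reference at the same dose. By the first part of the library name, only Polygalae 20 shares set 4 with Aucklandiae 20. Liriopis 20 and Schisandrae 20 are in set 2, and Longan 20 and Zizyphi 20 in set 3. Differences between extracts and between library sets therefore cannot be fully told apart in the comparison with their mean. Against Vehicle, 2106 genes were called for Polygalae 20, 63 for Zizyphi 20, 34 for Schisandrae 20, 15 for Liriopis 20 and 3 for Longan 20, beside the 520 of Aucklandiae 20. Set against the mean of these 5, Aucklandiae 20 differed in 59 genes (0.34%), 26 higher (0.15%) and 33 lower (0.19%). That count rested on the libraries: in edgeR it was 0 when any 1 of the Aucklandiae 20 replicates was left out (1534 to 1961 genes at an unadjusted p under 0.05) and 0 when Liriopis 20 or Schisandrae 20 was left out of the mean (1744 and 1802), while it was 158, 270 and 272 without Longan 20, Zizyphi 20 and Polygalae 20.

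Within these limits BTG2 and HSPB1 were lower than in the other extracts, in a test that shares its Aucklandiae 20 libraries with the test against Vehicle. BTG2 averaged 8.52 ± 0.512 CPM in Aucklandiae 20, against 9.64 to 11.3 CPM in the means of the other 5 extracts (-0.27 ± 0.0639, edgeR adjusted p = 0.0381). HSPB1 averaged 319 ± 15.7 CPM in Aucklandiae 20, against 353 CPM in Longan 20, 357 in Zizyphi 20, 366 in Polygalae 20, 407 in Liriopis 20 and 438 in Schisandrae 20 (-0.26 ± 0.0553, adjusted p = 0.0292). Aucklandiae 20 had the lowest mean of the 6 extracts for both genes, which the naming rule of this comparison required. TAGLN, an actin-binding protein of smooth muscle type, had 29.7, 29.9 and 30.5 CPM in Aucklandiae 20 and means of 34.7 to 38.6 CPM in the others (-0.28 ± 0.062, adjusted p = 0.0318). MPV17, a channel of the inner mitochondrial membrane, averaged 27.5 ± 1.77 CPM in Aucklandiae 20 and 30.2 to 33.6 CPM in the others (-0.22 ± 0.0487, adjusted p = 0.0292), and it also fell against Vehicle (-0.25, adjusted p = 0.0139). TMEM160, which was the largest rise against Vehicle, was not called here (0.24, adjusted p = 0.615), nor was FOSL1 (-0.19, adjusted p = 0.172).

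Higher in Aucklandiae 20 than in the mean of the other extracts were MIB1, a ubiquitin ligase needed by Notch ligands (76.1 ± 2.73 CPM, against 65.3 to 71.3; 0.17 ± 0.0346, adjusted p = 0.0238), and TRPM4, a calcium-activated cation channel. TRPM4 averaged 18.8 ± 0.240 CPM in Aucklandiae 20, with means of 15.1 to 17.1 CPM in the other extracts (0.21 ± 0.0498, adjusted p = 0.0434), and it rose against Vehicle as well (0.26, adjusted p = 0.0146). PIK3CA, the catalytic subunit of phosphoinositide 3-kinase alpha (0.18, adjusted p = 0.0434), and ZDBF2, a zinc finger gene at an imprinted locus (0.27, adjusted p = 0.0283), were higher too but were not called against Vehicle (adjusted p of 0.125 and 0.14).

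**Figure D5:**
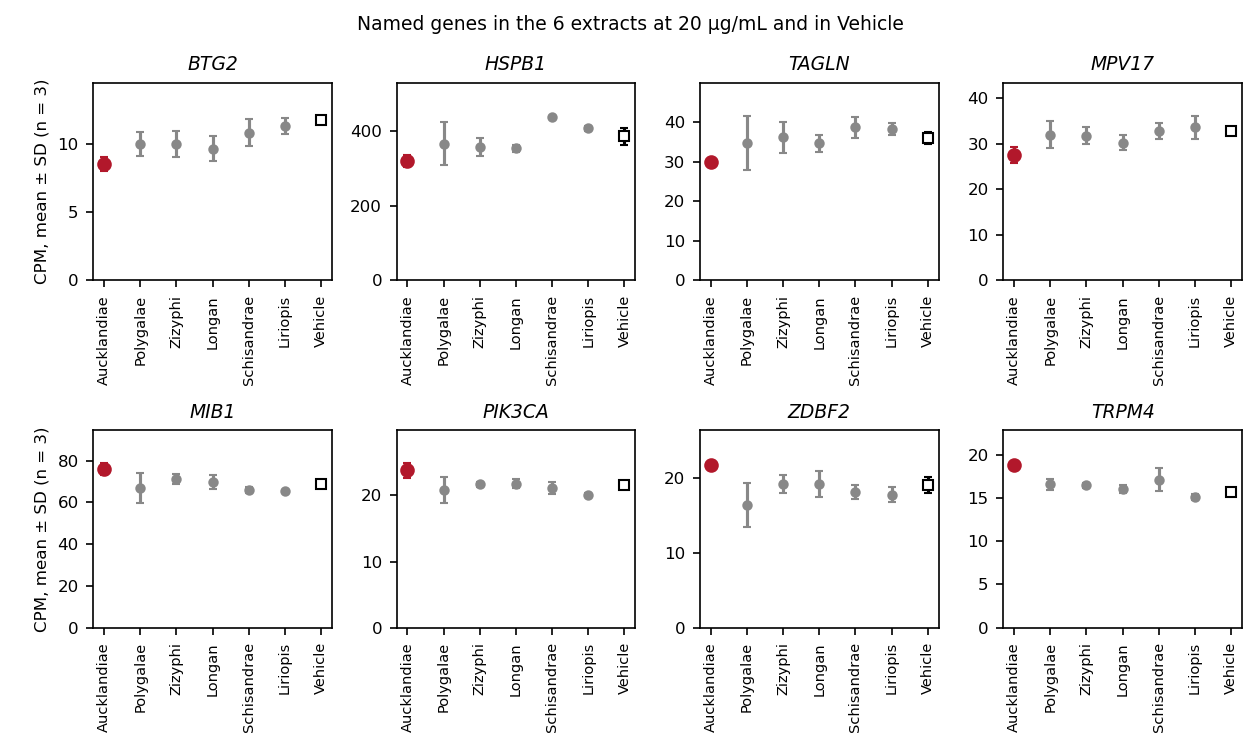
CPM (y axis, mean ± SD of 3 libraries) of 8 genes in Aucklandiae 20 (red), the other 5 extracts at 20 µg/mL (grey) and Vehicle (open square). Aucklandiae 20 has the lowest mean of BTG2, HSPB1, TAGLN and MPV17 and the highest of MIB1, PIK3CA, ZDBF2 and TRPM4, and the error bars of Polygalae 20 are wide for several genes.

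Against Polygalae 20 alone, which shares the library set, 675 genes differed (3.89%), 327 higher in Aucklandiae 20 (1.88%) and 348 lower (2%). This count rested on single libraries: it was 5 without Polygalae 20 replicate 1, 1876 without its replicate 2 and 2880 without its replicate 3, and 148 and 14 without Aucklandiae 20 replicates 1 and 2. In the 6 libraries alone edgeR called none, with 760 genes at an unadjusted p under 0.05. The named genes of this comparison were, among those lower in Aucklandiae 20, BRI3 (21.6 ± 0.561 CPM in Aucklandiae 20 and 29.1 ± 2.12 CPM in Polygalae 20; -0.43 ± 0.0636, adjusted p = 6.06e-05), RPS29, EID3 and UQCC5. Among those higher they were ZDBF2 (21.8 ± 0.236 CPM in Aucklandiae 20 and 16.4 ± 2.93 CPM in Polygalae 20; 0.41 ± 0.0761, adjusted p = 0.00411), DST, REL and NFATC2.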

How the data were processed

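RNA of A549 cells was sequenced, per the labels, from libraries made with a strand-specific kit as paired-end reads of 100 bases. The build GRCh38 and the tools RSEM 1.3.3, STAR 2.7.3a, FastQC 0.11.9 and Trim Galore 0.6.5 stand in the submitters' processing notes. The authors deposited expected counts per gene (RSEM estimates, not scaled for depth), which divide reads between paralogs, pseudogenes and copies. The sources used here give neither annotation release nor strand setting. Of the values 10.7% were not whole, and all were rounded. Symbols were matched for all but 3620 of 60675 Ensembl genes, and GENCODE release 29 (GRCh38) gave the positions.

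From these counts, R 4.3.3 with limma 3.58.1 and edgeR 4.0.16 kept 17368 genes with filterByExpr, scaled libraries with TMM, and fitted a robust quasi-likelihood model to all 60 libraries, with 1 mean per group and up to 40 residual degrees of freedom. Tests were two-sided, and p-values were adjusted by the Benjamini-Hochberg method over all genes tested. The SE of a log2 fold change was derived from the test statistic of this fit, so its spread also came from all 60 libraries. A gene was called, or said to rise or fall, at an adjusted p under 0.05. CPM values were computed with TMM-scaled depth, except for the cell type marker and histone sums, which used library totals. DESeq2 1.42.0 was an alternative. The steps were tested on simulated data: with 17368 genes, 28% of genes changed by 0.2 (log2) and 74% of those changed by 0.5 were called in this comparison. Of genes changed by 1, 66% were called, and of those changed by 2, 92%, with 50 genes at each size.

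The 12 protein-coding genes with the largest rise and the 12 with the largest fall were named. They were taken from called genes of at least 5 CPM whose groups did not overlap. The 4 largest in each direction of each other comparison were named by the same rule. For the mean of the other 5 extracts, all Aucklandiae 20 libraries had to lie beyond all 5 group means. Up to 4 called members of each list were also named, with 12 genes that earlier results on other doses had named. The comparison, the gene lists and the rules were chosen with earlier results of these data known. Promoters came from RefSeq, where 15 of the 24 named genes had an entry. Results for some called genes are not reported here.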

Additional observations from a re-analysis of the deposited data

How the results depend on the processing

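The 520 calls against Vehicle became 845 with every gene that had a count, 1170 in the 6 libraries alone, 978 without Polygalae 20 and 950 without the 5 libraries that deviated most from their group mean (both of the last chosen after seeing the data). DESeq2 called 653, and size factors by the RLE method 540. Genes higher and lower numbered 240 and 280 at first, 556 and 157 with library totals, 309 and 536 with every gene, 523 and 647 in the 6 libraries alone, 468 and 510 without Polygalae 20, and 449 and 501 without the 5 libraries. Leaving out 1 library at a time gave 104 to 363 calls, 43 to 167 higher and 61 to 199 lower. Replicate numbers showed little sign of pairing: deviations of same-numbered libraries correlated at 0.034, 0.014 and 0.061. Aucklandiae 20 replicates 1 and 3 matched the Vehicle replicate of the same number best, and replicate 2 matched Vehicle replicate 1 best. These values do not settle whether the samples were paired. A replicate block gave 582 calls, and a block in the 6 libraries alone 1255 (567 higher, 688 lower). Against Aucklandiae 500 the 182 calls became 280 with every gene, 415 with a replicate block in those libraries alone, and 105 to 137 with 1 library left out. Against Polygalae 20 the 675 calls became 1459 with every gene, 1235 with DESeq2, and 0 in the libraries alone without and with a replicate block (760 and 782 at an unadjusted p under 0.05 in edgeR), and 5 to 2880 with 1 library left out. Against the mean of the other extracts the 59 calls became 102 with library totals, 512 with every gene, 280 with DESeq2, 272 without Polygalae 20, 123 without the 5 libraries, and 0 in the libraries alone without and with a replicate block (1436 and 1525 at an unadjusted p under 0.05 in edgeR). It was 0 with any 1 of the Aucklandiae 20 libraries left out, and with 1 extract left out of the mean 0 without Liriopis 20, 0 without Schisandrae 20, 158 without Longan 20, 270 without Zizyphi 20 and 272 without Polygalae 20. The cause of these shifts was not tested. For the 117 named genes, 1564 of 1867 values under alternatives stayed on their side of the threshold, 263 kept the direction but lost the call, and 40 gained it. The sign changed in 12 of the 1564 values, in 6 genes that were not called in either fit, and in none of the called genes. For called genes whose groups did not overlap this says little, because the alternatives reuse the same libraries. In the simulated data a change of 0.2 on the log2 scale was often missed, and some larger changes were missed too. An uncalled gene is therefore not shown to be unchanged.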
